A study of Mus musculus with 4 samples.

Results

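Motile cilia genes are the genes that build and control the beating cilia of multiciliated airway cells. A list of 34 such genes was matched by gene name to the deposited table of mouse lung tumour cells, and 31 of the 34 had a row among 21420 named genes. Dnah3, Dnah12 and Deup1 had none and are not analysed here. RNA came from cells labelled CD45- that were prepared from lung tumours 10 weeks after mice received adenoviral Cre (Ad-Cre) through the nose, with CD45 magnetic beads in the preparation. The KL25 group was Lkb1fl/fl and Usp25-/-, and the KL group was Lkb1fl/fl, so both groups shared floxed Lkb1, while the deubiquitinase gene Usp25 was deleted in KL25 alone. There were 2 libraries a group, from 2 mice a group by the design text. Levels are FPKM, reads scaled to transcript length and to library size, as read from the deposited values. Wherever a pair of values is given for a group, replicate 1 stands before replicate 2. Because Cre was delivered by virus, only cells that took it up recombine the floxed alleles, and the preparation can hold other cells of the lung.

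A motile cilium is a membrane-covered axoneme of microtubule doublets around a central pair of microtubules. Outer and inner dynein arms slide the doublets against each other, radial spokes carry signals from the central pair to the arms, and tektins run inside the doublet wall. Airway cells that take this fate switch on Mcidas, Foxj1 and RFX factors, copy their centrioles in large numbers and then assemble the axoneme. In the lung many of these genes mark the ciliated cells of the bronchial lining, which are not part of the alveolar wall.

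RFX factors bind X-boxes, inverted repeats found before many cilia genes, and promoters were read from RefSeq for 29 of the 34 genes (GRCm38.p6, 250 bases before to 50 after the annotated start). The X-box layout searched was GTTGC, then 3 or 4 bases of any kind, then GCAAC, which reads the same on both strands. It was chosen after some of these windows had been read. It was present in the promoters of 6 of the 29 genes (20.7%) and of 120 of 27025 genes in the whole table (0.444%). The single RFX site GTTGCC, searched on both strands and overlapping some of these layouts, was present in 16 of 29 genes (55.2%), against 14.1% of all genes. The forkhead site TGTTTAC was present on either strand in 0 of 29 genes, against 4.05% of all genes. A gene with several windows counts as holding a site if any window does. A match in letters is not a measured binding site. The windows of 4 of the 6 genes are shown because the genes differ in role, a dynein light chain, a tektin, an outer arm chain and a central pair protein, with the X-box layout in capitals. They are Dynlrb2 on chr8:116504765-116505064 (plus strand), Tekt2 on chr4:126325597-126325896 (minus strand), Dnaic2 on chr11:114727169-114727468 (plus strand) and Hydin on chr8:110266727-110267026 (plus strand).
Dynlrb2: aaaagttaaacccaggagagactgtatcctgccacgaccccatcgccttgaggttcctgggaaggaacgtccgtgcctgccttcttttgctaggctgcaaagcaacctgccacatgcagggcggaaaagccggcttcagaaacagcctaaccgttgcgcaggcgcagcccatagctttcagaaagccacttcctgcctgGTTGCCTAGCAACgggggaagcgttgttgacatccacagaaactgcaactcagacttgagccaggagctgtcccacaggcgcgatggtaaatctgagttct
Tekt2: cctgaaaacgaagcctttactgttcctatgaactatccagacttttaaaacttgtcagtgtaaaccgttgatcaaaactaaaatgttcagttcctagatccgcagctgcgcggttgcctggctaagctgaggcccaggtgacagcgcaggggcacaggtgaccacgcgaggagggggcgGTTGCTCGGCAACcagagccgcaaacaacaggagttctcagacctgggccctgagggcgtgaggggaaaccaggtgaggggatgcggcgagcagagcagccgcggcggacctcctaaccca
Dnaic2: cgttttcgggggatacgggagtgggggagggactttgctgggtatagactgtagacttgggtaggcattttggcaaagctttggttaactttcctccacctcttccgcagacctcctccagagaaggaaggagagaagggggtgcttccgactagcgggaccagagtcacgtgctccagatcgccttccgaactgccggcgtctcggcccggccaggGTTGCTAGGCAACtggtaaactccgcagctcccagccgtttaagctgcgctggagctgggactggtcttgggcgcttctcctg
Hydin: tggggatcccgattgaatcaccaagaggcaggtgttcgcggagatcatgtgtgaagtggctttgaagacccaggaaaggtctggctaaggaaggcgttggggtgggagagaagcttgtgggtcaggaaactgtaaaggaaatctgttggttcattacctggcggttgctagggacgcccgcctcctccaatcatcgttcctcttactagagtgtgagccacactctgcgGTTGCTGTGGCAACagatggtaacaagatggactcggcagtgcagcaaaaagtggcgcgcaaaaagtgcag
The layout began 51, 71, 33 and 21 bases before the annotated start of the windows shown for Dynlrb2, Tekt2, Dnaic2 and Hydin. Tekt2 has several annotated starts. The same layout lay 29 bases before another of them, and the window of a further start did not hold it. The remaining genes of the 6 were the tektin Tekt4 and the dynein Dnah6, where it began 36 bases before the start in each.
Tekt4: GTTGCTCAGCAAC
Dnah6: GTTGCTAAGCAAC

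Depth differed between the libraries. Relative depth, read as size factors from the deposited means, was 0.853 and 0.823 for KL25, against 1.30 and 1.09 for KL. The mean normalized count summed over all genes was 10577718. KL replicate 1 stood apart. It held 2496 genes seen in no other library, against 147 to 451 for each of the other libraries, and its correlation with them on the log2 scale across genes was 0.933 to 0.939, against 0.964 to 0.982 among the others. Usp25 was at 2.65 and 1.71 FPKM in the KL25 libraries, against 38.5 and 16.6 FPKM in the KL libraries, so all libraries matched their Usp25 labels. Floxed Lkb1 (Stk11) was at 16.9 and 20.7 FPKM in the KL25 libraries, against 19.5 and 23.9 FPKM in the KL libraries. Both groups carry the floxed alleles, so these values do not check their recombination.

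Most motile cilia genes were at a low level, and 4 of the 31 (Mcidas, Dnaic1, Spag6l and Tekt4) were listed at 0 in at least 1 library. Summed over the 31 genes they reached 81.5 and 130.3 FPKM in the KL25 libraries, against 55.9 and 137.9 FPKM in the KL libraries, so the groups overlapped. Tppp3 and Sec14l3 were the most abundant, and without both the sums were 29.4 and 46.3 FPKM in the KL25 libraries, against 32.7 and 50.6 FPKM in the KL libraries. Of the 31 genes 18 averaged under 1 FPKM over the 4 libraries, and 4 averaged at least 5 FPKM. Read counts could be solved from the deposited means for 29 of the 31 genes. Their totals over the 4 libraries ran from 3 to 383 reads, with a median of 108, so many of the values below rest on few reads. In such bulk RNA, fewer ciliated cells and less RNA per ciliated cell cannot be told apart.

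**Figure D1:**
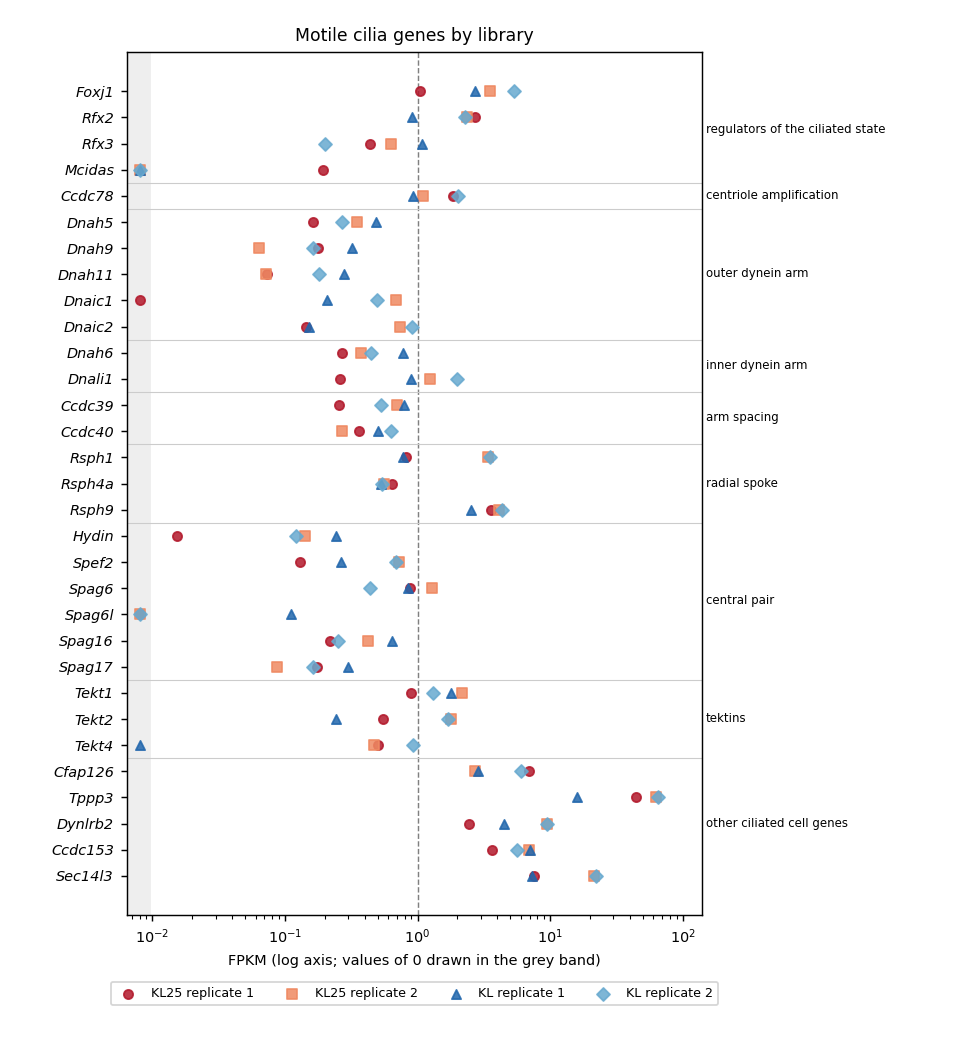
FPKM (log axis) of the 31 motile cilia genes with a row, grouped by role, with 1 point for each library and the dashed line at 1 FPKM. Most genes lie below 5 FPKM, and the values of KL25 and KL overlap for 25 of the 31 genes. Among all genes tested on FPKM, KL25 lay entirely above KL in 19.1% and entirely below in 15.0%. Those genes had passed the level filter, which not all of the 31 did.

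The regulators of the ciliated state showed no shared direction. Foxj1, the forkhead factor that switches on motile cilia genes (chromosome 11, 116330704 to 116335399, GRCm38), was at 1.04 and 3.50 FPKM in the KL25 libraries, against 2.72 and 5.34 FPKM in the KL libraries. Its highest value was in KL replicate 2 and its lowest in KL25 replicate 1, and the groups overlapped. The means were 2.27 ± 1.74 FPKM for KL25 and 4.03 ± 1.86 FPKM for KL (SD, n = 2 each). The log2 fold change on log2(FPKM + 1) was -0.68 (SE 0.51), short of the threshold in limma (adjusted p = 0.942). These values came from 26 and 82 reads in the KL25 libraries, against 107 and 168 reads in the KL libraries.

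Rfx2, an RFX factor of ciliogenesis, was the regulator whose groups did not overlap. It was at 2.70 and 2.34 FPKM in the KL25 libraries, against 0.914 and 2.29 FPKM in the KL libraries. The gap between the nearest libraries of the groups was small beside the difference between the KL libraries, and the log2 fold change of 0.49 (SE 0.39) did not pass in limma (adjusted p = 0.942). Its relative Rfx3 was at 0.437 and 0.634 FPKM in the KL25 libraries, against 1.08 and 0.200 FPKM in the KL libraries. Both extremes of Rfx3 therefore lay in KL. Mcidas, which encodes multicilin, the coactivator that starts the multiciliated programme, was found with 5 reads in KL25 replicate 1 and 0 reads in the other libraries. A count of 0 allows up to 3 reads, so no fold is given for Mcidas.

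Of the centriole amplification genes only Ccdc78 was measured. Ccdc78, a protein of the deuterosome on which new centrioles form, was at 1.85 and 1.11 FPKM in the KL25 libraries, against 0.919 and 2.03 FPKM in the KL libraries. Its group means were 1.48 ± 0.524 FPKM for KL25 and 1.47 ± 0.785 FPKM for KL.

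The dynein heavy chains lay below 1 FPKM in every library, and all 4 had a lower mean in KL25 than in KL without passing a test. Dnah11, a heavy chain of the outer arm (chromosome 12, 117877982 to 118199043, GRCm38), was at 0.0731 and 0.0716 FPKM in the KL25 libraries, against 0.279 and 0.181 FPKM in the KL libraries. Neither KL25 library reached the lower KL library, and the mean was 3.18-fold higher in KL than in KL25. The authors' deposited table gives Dnah11 a log2 fold change of -1.66 (SE 0.675) with an unadjusted p of 0.0136 and an adjusted p of 0.840. The values came from 10 reads in each KL25 library, and 60 and 32 reads in KL.

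Dnah6, a heavy chain of an inner arm, was at 0.270 and 0.372 FPKM in the KL25 libraries, against 0.782 and 0.449 FPKM in the KL libraries, again without overlap. The outer arm chain Dnah5 was at 0.163 and 0.348 FPKM in the KL25 libraries, against 0.487 and 0.267 FPKM in the KL libraries. Dnah9, a further outer arm chain, was at 0.177 and 0.0635 FPKM in the KL25 libraries, against 0.322 and 0.162 FPKM in the KL libraries. For Dnah5 and Dnah9 the groups overlapped. All 4 heavy chains with a row were highest in KL replicate 1.

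The smaller dynein chains had another pattern. Dnaic2, an intermediate chain that anchors the outer arm, was at 0.144 and 0.734 FPKM in the KL25 libraries, against 0.152 and 0.906 FPKM in the KL libraries. Its partner Dnaic1 was listed at 0 in KL25 replicate 1 and was at 0.682 FPKM in KL25 replicate 2, against 0.206 and 0.491 FPKM in the KL libraries. In both genes the replicate labelled 2 was the higher library of each group. Dnaic2 rests on 4 and 20 reads in KL25 (95% exact Poisson intervals 1.09 to 10.2 and 12.2 to 30.9), and 7 and 32 reads in KL (2.81 to 14.4 and 21.9 to 45.2). Within each group these intervals did not overlap, and they cover counting error only. Dnali1, a light intermediate chain of inner arms, was at 0.262 and 1.25 FPKM in the KL25 libraries, against 0.899 and 1.98 FPKM in the KL libraries.

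Ccdc39 and Ccdc40 form a ruler along the doublet that sets where inner arms and spokes attach. Ccdc40 was at 0.361 and 0.270 FPKM in the KL25 libraries, against 0.4997 and 0.632 FPKM in the KL libraries, without overlap. Ccdc39 was at 0.254 and 0.704 FPKM in the KL25 libraries, against 0.795 and 0.533 FPKM in the KL libraries, with overlap. The authors' deposited table gives them log2 fold changes of -0.81 (SE 0.567) for Ccdc40 and -0.50 (SE 0.921) for Ccdc39, and neither passed there (adjusted p = 1.00 for each).

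The radial spoke genes had similar means in both groups. Rsph9, a spoke head protein, was at 3.60 and 4.13 FPKM in the KL25 libraries, against 2.51 and 4.36 FPKM in the KL libraries. Rsph1, also of the spoke head, was at 0.821 and 3.38 FPKM in the KL25 libraries, against 0.776 and 3.52 FPKM in the KL libraries. The difference within each group was about 4-fold in Rsph1, while the group means were 2.10 ± 1.81 FPKM for KL25 and 2.15 ± 1.94 FPKM for KL. Rsph4a, the spoke head scaffold, varied little, with 23 and 19 reads in the KL25 libraries, against 30 and 25 reads in the KL libraries. Its level of 0.637 and 0.559 FPKM in KL25 lay just above the 0.532 and 0.543 FPKM in KL.

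Among central pair genes Hydin and Spef2 varied several-fold between libraries. Hydin, a very large protein of the central pair, was at 0.0152 and 0.141 FPKM in the KL25 libraries, against 0.242 and 0.122 FPKM in the KL libraries. That is 3 and 21 reads in the KL25 libraries, against 59 and 24 reads in the KL libraries. KL25 replicate 1 was thus the low library, while KL25 replicate 2 lay between the KL libraries. Spef2 was at 0.129 and 0.726 FPKM in the KL25 libraries, against 0.263 and 0.690 FPKM in the KL libraries. Spag17 was at 0.173 and 0.0867 FPKM in the KL25 libraries, against 0.301 and 0.161 FPKM in the KL libraries.

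Spag6, an armadillo-repeat protein of the central pair, was at 0.883 and 1.29 FPKM in the KL25 libraries, against 0.845 and 0.436 FPKM in the KL libraries. The groups did not overlap, with 0.883 FPKM in KL25 replicate 1 close to 0.845 FPKM in KL replicate 1, and the log2 fold change of 0.35 (SE 0.39) did not pass in limma (adjusted p = 0.942). Its close paralog Spag6l had 3 reads in KL replicate 1 and 0 in every other library, and reads of such paralogs can be split by the counting, so both values are uncertain. Spag16 is listed at 0.217 and 0.423 FPKM in the KL25 libraries, against 0.647 and 0.250 FPKM in the KL libraries. Those values rest on 1 and 1 reads in the KL25 libraries, against 3 and 1 reads in the KL libraries. Ccdc39, with a longest transcript of 3606 bases against 3559 bases for Spag16, had 9 to 44 reads in each library at similar FPKM, so the FPKM and the counted reads of Spag16 do not match and its level is not interpreted.

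Tektins followed the same library order as the small dynein chains only in part. Tekt2 was at 0.550 and 1.78 FPKM in the KL25 libraries, against 0.243 and 1.71 FPKM in the KL libraries. Tekt1 was at 0.899 and 2.18 FPKM in the KL25 libraries, against 1.79 and 1.30 FPKM in the KL libraries. Tekt4 was at 0.499 and 0.466 FPKM in KL25, and it was listed at 0 in KL replicate 1 and was at 0.928 FPKM in KL replicate 2. The 0 for Tekt4 stands for 0 reads, which allows up to 3, beside 8 and 7 reads in KL25 and 18 reads in KL replicate 2.

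The most abundant members were Tppp3 and Sec14l3. Tppp3, a tubulin-binding protein abundant in ciliated cells, was at 44.5 and 62.6 FPKM in the KL25 libraries, against 15.9 and 65.1 FPKM in the KL libraries. KL replicate 1 alone was low, and the log2 fold change of 0.69 (SE 0.69) did not pass in limma (adjusted p = 0.942). It turned to -0.30 without KL replicate 1. Sec14l3, a lipid-binding protein of ciliated airway cells, was at 7.59 and 21.5 FPKM in the KL25 libraries, against 7.31 and 22.2 FPKM in the KL libraries. Its group means were 14.5 ± 9.80 FPKM for KL25 and 14.7 ± 10.5 FPKM for KL. Dynlrb2, a dynein light chain, was at 2.46 and 9.40 FPKM in the KL25 libraries, against 4.47 and 9.48 FPKM in the KL libraries.

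Cfap126 and Ccdc153 departed from that pattern. Cfap126, which positions basal bodies, was at 6.94 and 2.72 FPKM in the KL25 libraries, against 2.84 and 6.01 FPKM in the KL libraries, so its high libraries were KL25 replicate 1 and KL replicate 2. Ccdc153, a marker of ciliated cells, was at 3.64 and 6.90 FPKM in the KL25 libraries, against 7.10 and 5.63 FPKM in the KL libraries.

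No motile cilia gene passed between KL25 and KL in any test. The deleted gene Usp25 did not pass in limma either. Its log2 fold change was -3.07 on FPKM (adjusted p = 0.942 in limma) and -3.59 on solved read counts (adjusted p = 0.979 in limma). The authors' deposited table does call Usp25 (adjusted p = 0.0170). A member that did not pass is therefore not shown to be unchanged. Of the 31 genes 14 reached a mean of 1 FPKM in either group and entered limma on log2(FPKM + 1), so a gene could enter by being high in 1 group. Of these, 0 passed at an adjusted p of 0.05, beside 0 of 12476 genes tested (0.0%), and 0 had an unadjusted p below 0.05, beside 3.23% of all genes. The authors' deposited table, which calls 18 of its 14770 genes with an adjusted p (0.122%), calls 0 of the 28 members that have one. At an unadjusted p below 0.05 it lists 1 of 31 members, Dnah11, beside 4.09% of all genes. The median log2 fold change of the 14 genes was 0.011, with 8 positive and 6 negative (46.9% of all genes were negative), and the median of all genes tested was 0.030. In 2 of the 14, Rfx2 and Spag6, the lower KL25 value exceeded the higher KL value, beside 19.1% of all genes tested. In 0 of the 14 the KL25 values lay entirely below those of KL, beside 15.0%.

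Because the FPKM filter leaves out long genes with many reads, the comparison was repeated on the solved read counts, an alternative chosen after the data were seen. It covered 26 members with a mean normalized count of at least 10. Of the 26, 0 passed in limma (beside 0.0% of 13635 genes) and 0 had an unadjusted p below 0.05 (beside 2.82%). The lowest was Dnah11, with a log2 fold change of -1.57 (SE 0.74, unadjusted p = 0.0782, adjusted p = 0.979 in limma). There were 16 negative and 10 positive fold changes, and 50.0% of all genes were negative. The median was -0.28, against -0.0011 for all genes. On normalized reads 3 of 26 members (Rfx2, Rsph4a and Spag6) had KL25 values entirely above those of KL, beside 16.4% of all genes. In each the gap was far less than 1 read. The nearest normalized reads were 86.25 in KL25 against 86.22 in KL for Rfx2, 23.08 against 23.07 for Rsph4a and 24.609 against 24.607 for Spag6. In 3 more (Dnah6, Dnah11 and Ccdc40) they lay entirely below, beside 16.5%.

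Among the members, single libraries of the same group differed more than the group means did. Means of 2 libraries vary less than single libraries, so this order is partly set by the measure. Over the 26 members the median absolute log2 difference was 1.06 between the KL25 replicates, 0.99 between the KL replicates and 0.55 between the group means. Over all 13635 genes the same medians were 0.35, 0.62 and 0.35. Those genes were not matched to the members in read count, and many members rest on few reads. The part of counting error in the wider spread of the members was not tested. For 13 of the 26 members the difference between groups was smaller than the difference within either group, beside 38.4% of all genes, and for 3 it was larger than both, beside 19.1%.

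**Figure D2:**
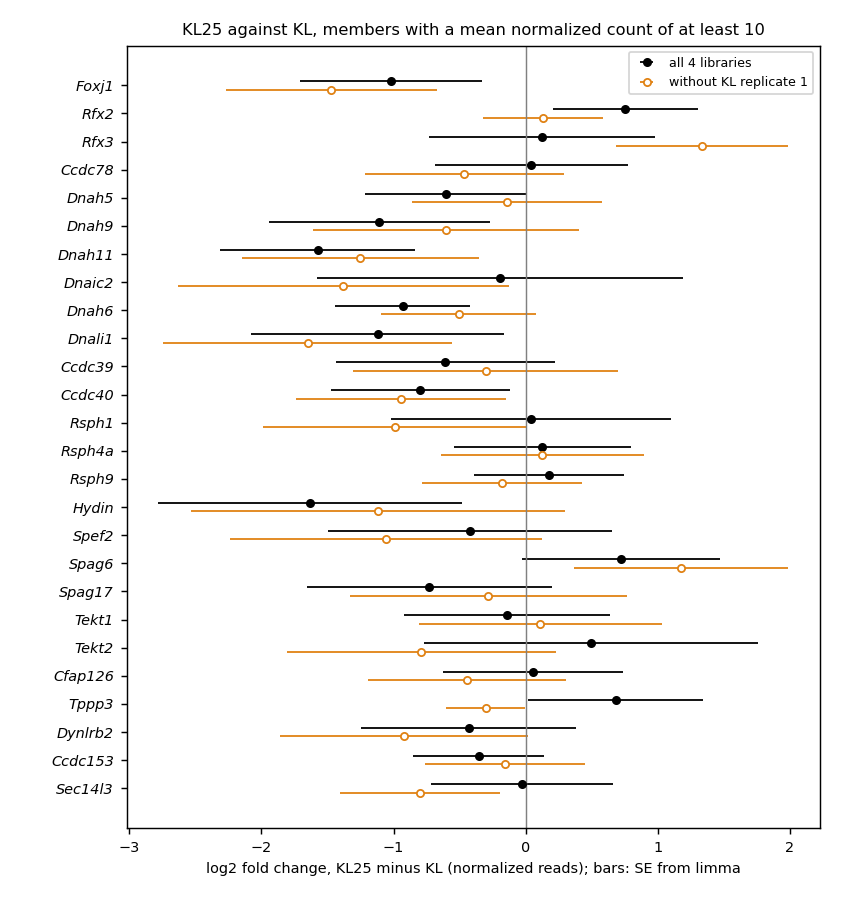
Log2 fold change of KL25 minus KL on normalized reads for the 26 members with a mean normalized count of at least 10, with SE bars from limma, over all 4 libraries (filled) and without KL replicate 1 (open). Of the 26 values 16 are negative with all libraries (50.0% of all genes) and 21 without KL replicate 1 (50.8% of all genes). None passed with all libraries.

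The direction of the list turned on single libraries. Without KL replicate 1, 11 of the 14 genes on the FPKM scale were negative (51.2% of all genes), with a median of -0.34. Without KL replicate 2 the median was 0.41, with 10 of 14 positive (46.1% of all genes were negative). Without KL25 replicate 1 it was 0.37, and without KL25 replicate 2 it was -0.53 over 12 members. The filter was applied anew in each fit, so the members tested were not always the same. Dnali1 did not enter without KL replicate 2, nor did Spag6 and Tekt2 without KL25 replicate 2. Part of these shifts can therefore come from the members that entered. None of these fits called a member. No direction is therefore given for the list.

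The order of the libraries is described here after the values were seen. KL25 replicate 2 was above KL25 replicate 1 in 19 of the 26 genes, beside 47.9% of all genes, and KL replicate 2 above KL replicate 1 in 14, beside 48.9%. In 10 of the 26 genes, among them Foxj1, Rsph1, Tekt2, Dnaic2, Spef2 and Sec14l3, the library labelled replicate 2 was above replicate 1 in both groups, beside 25.5% of all genes. In 6 of the 26 (Dnaic2, Dnali1, Rsph1, Sec14l3, Spef2 and Tekt2) it was at least 2-fold above in both groups, beside 1.78% of all genes. All genes were not matched to the members in read count here either, and 2-fold gaps are easier to reach with few reads. Rsph1 differed 3.73-fold between the KL25 libraries and 4.26-fold between the KL libraries, and Sec14l3 2.74-fold and 2.91-fold. For Tppp3 and Sec14l3 the reads were estimated from FPKM. The replicate numbers are names, and the labels do not pair mice across groups.

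In 9 of the 26 genes KL replicate 1 was the highest library, which is the share of all genes (34.6%), so the number of such members is not a feature of the list. They were Dnah5, Dnah6, Dnah9, Dnah11, Hydin, Spag17, Rfx3, Ccdc39 and Ccdc153. In 11 of the 26 KL replicate 2 was the highest library, beside 25.2%, and KL25 replicates 1 and 2 were highest in 3 genes each, beside 25.2% and 15.0%.

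**Figure D3:**
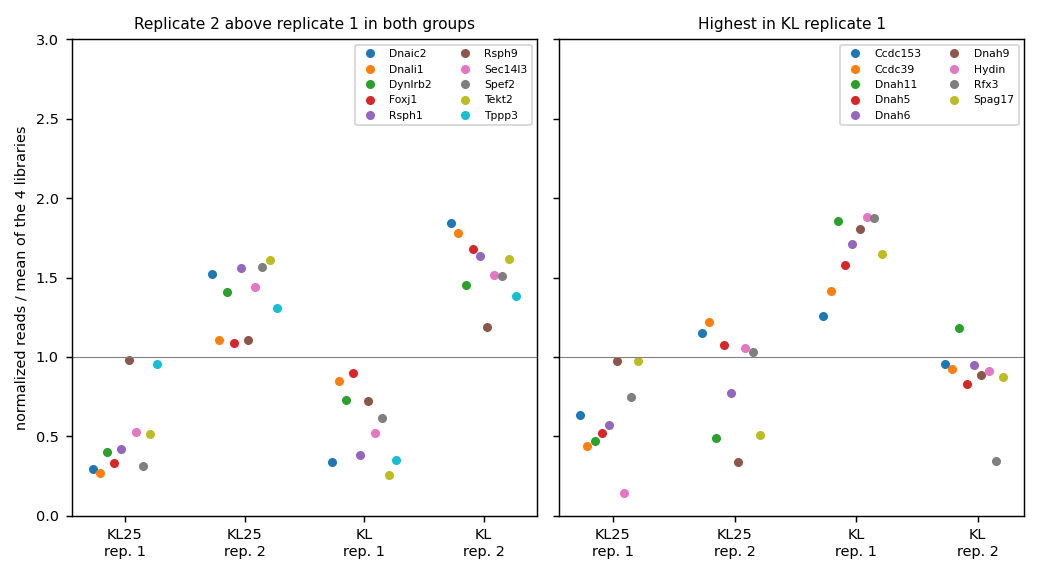
Normalized reads of each library divided by the mean of the 4 libraries, for the 10 members with replicate 2 above replicate 1 in both groups (left) and the 9 members highest in KL replicate 1 (right). The left panel shows the high libraries in both groups, and the right panel includes the 4 dynein heavy chains.

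The members highest in KL replicate 1 were mostly those with long transcripts. The comparison by length and its split at 6000 bases were not planned beforehand, and they describe the same libraries. Length was taken as the longest annotated transcript in GENCODE for GRCm38, and the level in KL replicate 1 as the log2 ratio of its normalized reads to the mean of the other libraries. Of 8 members with a transcript of at least 6000 bases 7 were highest in KL replicate 1, and their median log2 ratio was 1.24. Of 18 shorter members 2 were highest there, and the median ratio was -0.59. Hydin, at 15783 bases, had a log2 ratio of 1.42 and Dnah11, at 14072 bases, one of 1.38. Rsph1, at 1191 bases, had a ratio of -1.65 and Tekt2, at 1542 bases, one of -2.29. Spef2 was the long exception, with 7038 bases and a ratio of -0.88. Of the 18 shorter members 5 had a ratio above 0, among them Ccdc39 (3606 bases, 0.72) and Ccdc153 (1087 bases, 0.47).

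All genes leaned the same way with length, less steeply. The median log2 ratio over all genes was -0.53 below 1500 bases, -0.24 from 1500 to 3000, 0.056 from 3000 to 6000, 0.41 from 6000 to 10000 and 0.59 above that. Of all genes of at least 6000 bases 58.0% were highest in KL replicate 1, against 30.7% of shorter genes. Spearman's rho between length and ratio was 0.62 across the 26 members and 0.332 across 13079 genes. These are correlations across genes within the same 4 libraries, and the genes are not independent.

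**Figure D4:**
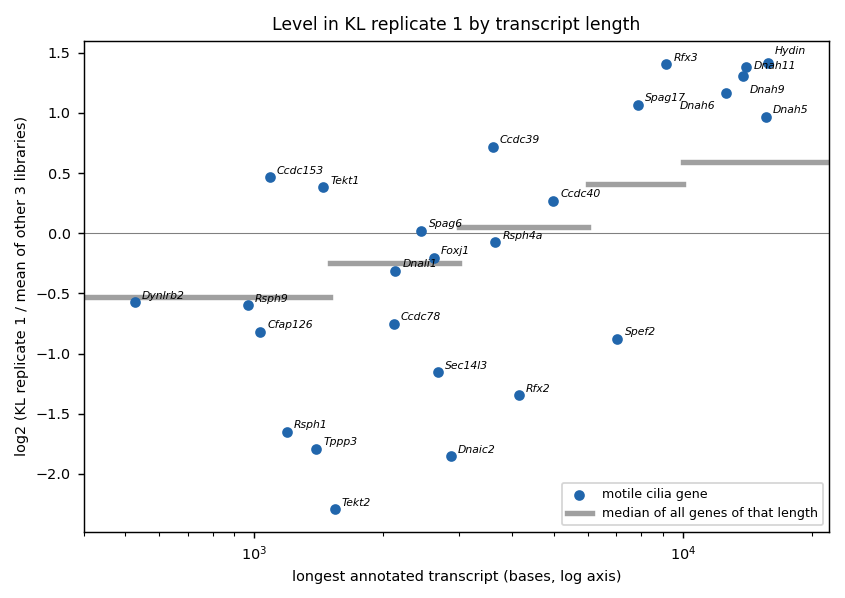
Log2 ratio of normalized reads in KL replicate 1 to the mean of the other 3 libraries against the longest annotated transcript (log axis) for 26 motile cilia genes (points), with the median of all genes in 5 length classes (grey bars). The dynein heavy chains and Hydin lie above 0.9, while short genes such as Tekt2 and Rsph1 lie below -1.6.

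Fold changes of long and short members came closer without KL replicate 1. For the 8 long members the median log2 fold change on normalized reads was -0.83 with 7 of 8 negative, and -0.55 without KL replicate 1, still with 7 of 8 negative. For the 18 shorter members it was 0.0054 with 9 negative, and -0.45 with 14 negative without KL replicate 1. A lower level in KL25 particular to long members is therefore not shown. Over all genes of that length the medians were -0.20 with all libraries and 0.045 without KL replicate 1. For Dnah11 the log2 fold change was -1.25 (SE 0.90) without that library, and it did not pass in limma (adjusted p = 0.784). The part of transcript length in the low values of the heavy chains in KL25 was not tested.

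Other cilia genes, taken from lists of axonemal parts, regulators, ciliated cell markers and intraflagellar transport, gave no calls either. Not all of them are particular to motile cilia. Of 161 such genes 147 had a row and 81 entered limma on FPKM, where 0 passed, 40 were positive and 41 negative, with a median log2 fold change of -0.005. On solved counts 111 were tested, 0 passed, and 65 were negative, beside 50.0% of all genes. Tmem212, a membrane protein of ciliated cells, was at 5.77 and 7.94 FPKM in the KL25 libraries, against 6.76 and 11.2 FPKM in the KL libraries. Genes that work outside motile cilia as well were far more abundant. Tspan1, a tetraspanin of many epithelia placed in the ciliated cell list, was at 80.2 and 38.7 FPKM in the KL25 libraries, against 31.6 and 21.2 FPKM in the KL libraries. Cetn2, a centrin of every centriole, was at 47.4 and 32.2 FPKM in the KL25 libraries, against 23.6 and 28.7 FPKM in the KL libraries. Ift20, which carries cargo to cilia from the Golgi, was at 44.8 and 36.4 FPKM in the KL25 libraries, against 21.7 and 34.5 FPKM in the KL libraries. Cfap20, a doublet protein, was at 29.2 and 25.9 FPKM in the KL25 libraries, against 18.9 and 27.1 FPKM in the KL libraries. None of these passed in limma (adjusted p = 0.942 for each).

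Axonemal regulators were low, and some were listed at 0 in KL25 replicate 1 but measured in the other libraries. Gas8, a subunit of the nexin-dynein regulatory complex, was at 2.39 and 4.81 FPKM in the KL25 libraries, against 3.69 and 6.02 FPKM in the KL libraries. Lrrc23, a radial spoke protein, was at 0 and 2.70 FPKM in the KL25 libraries, against 1.90 and 2.06 FPKM in the KL libraries. Ak7, an adenylate kinase of motile cilia, was at 0 and 1.81 FPKM in the KL25 libraries, against 1.32 and 2.36 FPKM in the KL libraries. Neither passed (adjusted p = 0.942 in limma for each). The 8 genes with a row in the nexin-dynein regulatory complex list, to which Lrrc23 was assigned, summed to 2.78 and 10.6 FPKM in the KL25 libraries, against 9.43 and 12.3 FPKM in the KL libraries.

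Intraflagellar transport and BBSome genes, which are among the 161 genes above and serve primary as well as motile cilia, gave no calls. All 34 had a row and 31 entered limma, of which 17 were positive and 14 negative with a median log2 fold change of 0.050, and 0 passed. Their median was 3.13 and 3.40 FPKM in the KL25 libraries, against 3.13 and 3.43 FPKM in the KL libraries. Their sums were 190.9 and 201.7 FPKM in the KL25 libraries, against 157.9 and 206.5 FPKM in the KL libraries, with KL replicate 1 the lowest.

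Markers of other cell types moved between libraries in their own ways. Summed over 10 club cell genes the level was 687.9 and 987.2 FPKM in the KL25 libraries, against 3941 and 846.5 FPKM in the KL libraries, and Scgb1a1, the secretoglobin that defines club cells, was at 219.4 and 567.4 FPKM in the KL25 libraries, against 741.3 and 461.9 FPKM in the KL libraries. Basal cell genes summed to 3.16 and 5.91 FPKM in the KL25 libraries, against 50.2 and 1.37 FPKM in the KL libraries. In both lists KL replicate 1 was the highest library. The motile cilia genes were mixed there. Rsph1 and Sec14l3 were lowest in that library, while 9 of the 26 members were highest in it, beside 34.6% of all genes. The 10 pan-epithelial genes summed to 4285 and 1612 FPKM in the KL25 libraries, against 1125 and 947.8 FPKM in the KL libraries. All 10 had a positive log2 fold change, while 46.9% of all genes tested were negative, and 0 of the 10 passed in limma.

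Alveolar lists were lowest in KL replicate 1. The 9 alveolar type 2 genes summed to 5018 and 4698 FPKM in the KL25 libraries, against 1571 and 3910 FPKM in the KL libraries. The 8 alveolar type 1 genes summed to 325.0 and 325.4 FPKM in the KL25 libraries, against 194.6 and 319.1 FPKM in the KL libraries.

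Endothelial genes were higher in replicate 2 of each group, while fibroblast genes differed clearly between the KL25 libraries and little between the KL libraries. The 6 endothelial genes summed to 79.5 and 144.5 FPKM in the KL25 libraries, against 92.3 and 213.5 FPKM in the KL libraries. The 6 fibroblast genes summed to 43.8 and 118.1 FPKM in the KL25 libraries, against 47.5 and 51.9 FPKM in the KL libraries. Leukocyte genes summed to 3273 and 3224 FPKM in the KL25 libraries, against 4680 and 4260 FPKM in the KL libraries, although the cells are labelled CD45-. Neutrophil genes summed to 2092 and 1235 FPKM in the KL25 libraries, against 41667 and 760.9 FPKM in the KL libraries, so KL replicate 1 stood out there as well. The part of these cell types in the motile cilia values was not tested. Of 9 flagellum genes of male germ cells 4 had a row, and their sum was at most 1.53 FPKM in any library.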

How the data were processed

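mRNA of 4 tumour cell samples was sequenced with a stranded kit, and per the labels' protocols the authors trimmed reads with cutadapt, aligned them to GRCm38 and counted reads per gene with HTSeq. The submitters' processing notes list GRCm38 and GRCm39. The aligner is not given in the sources used here, nor are versions or the strand setting. The library columns the authors deposited carry no unit and were read as FPKM from their totals and decimals. Per the file headers, the authors also deposited a signal column of mean normalized counts, the log2 fold change and its error, the score of their test, and p-values before and after adjustment. The 25 rows whose names had become dates, with 0.117% of summed FPKM, were left out. A table holding the same values and one with only a title were not used here.

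The design had assumed counts or FPKM, and the FPKM test was used: limma 3.58.1 under R 4.3.3, with its trend option, on log2(FPKM + 1) of genes averaging 1 FPKM or more in KL25 or in KL, Benjamini-Hochberg adjustment over all genes, threshold 0.05, KL25 minus KL, no covariates. This scale understates changes of low genes. With 2 libraries against 2, a two-sided exact permutation test cannot go below p = 0.333, and none was used.

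Among genes seen in 1 library, 100% of the deposited means were whole multiples of 1 step, within 0.01 of a read, which gives each size factor. With these, whole read counts that add up to the deposited mean were searched near the FPKM proportions. A single solution was found for 99.95% of 12396 genes with a mean of at most 100. For 99.93% of 8258 solved genes with at least 40 reads the log2 fold change of these counts lay within 0.05 of the deposited one. The solver and the fit were also run on simulated data, and the outcome is not given here. Limma was also run on log2((count + 0.5) / size factor) for genes with a mean normalized count of at least 10. For more abundant genes, Tppp3 and Sec14l3 among them, counts were estimated from FPKM proportions.

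A further allele that both groups carry is not reported here. The motile cilia genes, the other lists and the rule for genes named were chosen with earlier results of these data known. The rule allowed every member to be named, with full values for regulators, the 2 most abundant of each role, the lowest p-values and members listed at 0, plus the 2 most abundant genes of other cilia lists, of which some are given. Full values of Dnah9, Ccdc40, Rsph4a, Hydin, Spef2, Spag17, Cfap126, Dynlrb2 and Ccdc153 were added after they were seen. Promoters are from RefSeq and lengths and gene positions from GENCODE M21, matched by symbol, which gave a length for 96.3% of genes.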

Additional observations from a re-analysis of the deposited data

How the results depend on the processing

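With 2 libraries per group no member passed in limma under any alternative run, and 0 of 12476 genes passed (at an unadjusted p below 0.05 there were 269 higher in KL25 and 134 lower, or 373 and 252 with the block). These counts turned on single libraries, with 107 and 49 without KL25 replicate 1, 375 and 92 without KL25 replicate 2, 286 and 304 without KL replicate 1, and 1205 and 1445 without KL replicate 2. In the last, 2 members (Tppp3 and Rfx2, both higher in KL25) were below 0.05 unadjusted, with adjusted p of 0.195 and 0.225 in limma. The alternatives added after the data were seen used solved read counts. The exception over all genes was 1 gene, Rps27 (adjusted p = 0.0307 in limma), on solved read counts without KL replicate 1 (0 to 1 over the fits that left out a library). The median log2 fold change of the members ran from -0.53 to 0.41 over those fits, which did not all test the same members. It was -0.28 on solved counts and -0.49 on solved counts without KL replicate 1. The replicate number as a block left 0 genes and 0 members passing, with the same median of 0.011. Same-numbered libraries deviated together only weakly (correlation 0.152 over 12476 genes), and the labels do not say that the numbers pair mice. Foxj1 stayed negative in every alternative, from -1.47 to -0.11 when a library was left out, with adjusted p of 0.751 to 1.00 in limma over all alternatives. Some members changed sign without passing. Ccdc78 was at -0.0046 with median scaling, Rsph1 at 0.0072 with a pseudocount of 0.1 and 0.040 on solved counts, and Sec14l3 at -0.0036 with a pseudocount of 5, -0.026 with median scaling and -0.029 on solved counts. When a library was left out, the ranges that crossed 0 were -0.47 to 0.35 for Ccdc78, -0.99 to 0.67 for Rsph1, -0.18 to 0.47 for Rsph9, -0.42 to 0.33 for Tekt1, -0.79 to 0.74 for Tekt2, -0.48 to 0.61 for Cfap126, -0.30 to 1.67 for Tppp3, -1.13 to 0.46 for Dynlrb2, -0.66 to 0.11 for Ccdc153 and -0.80 to 0.74 for Sec14l3. Without KL replicate 1 the FPKM values were -0.31 for Ccdc78, -0.68 for Rsph1, -0.14 for Rsph9, -0.39 for Tekt2 and -0.74 for Sec14l3, and Cfap126 was at -0.44 on solved counts. A fit without 1 library assumes that the lone library varies like those of the other group. The cause of these changes was not tested. Depth limits the list: 3 members had at most 6 reads in all.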
